A study of Mus musculus with 15 samples.

Results

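The phagocyte NADPH oxidase is described here through 5 of its genes, Cybb, Cyba, Ncf1, Ncf4 and Rac2, out of 22072 mouse protein-coding genes with 1 annotated record. They were taken by name as subunits of the enzyme, with earlier results of these data known. In C10 cells, which derive from the HAFTL pre-B cell line and carry an estradiol-inducible C/EBPα (C/EBPαER-GFP), addition of β-estradiol in medium with IL-3 and CSF-1 starts a conversion of pre-B cells into macrophage-like cells. All 15 libraries come from this 1 line, so the time before estradiol (0 hours post-induction, hpi) carries the same transgene as 3, 12, 24 and 48 hpi. Chromatin immunoprecipitation with sequencing was done at each time for 3 histone marks: H3K27Ac, a mark of active promoters and enhancers, H3K4Me1, a mark of enhancers that are active or poised, and H3K27Me3, a mark left by Polycomb. Each mark and time has 1 library, so no difference between times has a replicate check and no test was run. All intervals below are 95% intervals that cover counting error only.

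The oxidase transfers electrons from NADPH across the phagosome membrane to oxygen, and the superoxide that forms is used against ingested microbes. Its membrane part, flavocytochrome b558, is a pair of Cybb (gp91phox, the catalytic NOX2 subunit) and Cyba (p22phox, which stabilizes Cybb and binds the cytosolic part). At rest Ncf1 (p47phox, the organizer) and Ncf4 (p40phox, which binds a phosphoinositide of the phagosome) stay in the cytosol, and on activation they join the membrane part together with the GTPase Rac2. Loss of these subunits causes chronic granulomatous disease or, for Rac2, a related defect of neutrophils. B lineage cells are known to make the enzyme too, at lower levels than phagocytes.

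Across the 5 genes, acetylation was already present at the start in uninduced cells, and the larger differences lay away from the start. The study saw weak C/EBPα signal in uninduced cells and proposes that the transgene is somewhat leaky. The part of this in the acetylation at 0 hpi was not tested. Among coding genes as a whole, 20.6% of bodies were at least 2-fold higher in H3K27Ac at 48 hpi and 7.97% lower. Of coding starts 10.9% were higher and 16.3% lower. The H3K27Ac level over the body of Cybb was 9.46-fold higher at 48 than at 0 hpi (8.50 to 10.5), while in 3 kb at its start it was 1.74-fold higher (1.52 to 1.98). Windows around Cyba, Ncf1 and Ncf4 went from near the genome mean to strong acetylation, while their starts changed less than 2-fold. At Cyba and Ncf1 such windows lie mostly in other annotated genes, and their tags cannot be assigned to the oxidase gene. Rac2 went the other way. It had the most H3K27Ac of the 5 starts before induction and 0.468 of that amount (0.422 to 0.518) at 48 hpi.

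The sequences at which these values were read are shown for 3 genes, first the 250 bases upstream of each start, because these starts carried H3K27Ac before induction. They are RefSeq sequences of build GRCm38.p6, and each has 1 exact match in the build of the tags, mm9 (NCBIM37), next to the start used here. They are written 5′ to 3′ on the minus strand, on which all 3 genes lie, with capitals for motif matches: Cybb at chrX:9046451-9046700, Cyba at chr8:124956841-124957090 and Ncf1 at chr5:134705496-134705745.
Cybb upstream: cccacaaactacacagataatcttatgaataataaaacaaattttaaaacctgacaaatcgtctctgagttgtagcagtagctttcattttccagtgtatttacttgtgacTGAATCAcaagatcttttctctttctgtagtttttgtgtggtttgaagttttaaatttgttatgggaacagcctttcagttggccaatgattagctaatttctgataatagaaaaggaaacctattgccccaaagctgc
Cyba upstream: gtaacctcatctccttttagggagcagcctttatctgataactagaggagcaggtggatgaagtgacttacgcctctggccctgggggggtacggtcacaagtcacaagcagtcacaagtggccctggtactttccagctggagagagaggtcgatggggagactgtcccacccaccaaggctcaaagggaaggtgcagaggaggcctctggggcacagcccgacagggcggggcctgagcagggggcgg
Ncf1 upstream: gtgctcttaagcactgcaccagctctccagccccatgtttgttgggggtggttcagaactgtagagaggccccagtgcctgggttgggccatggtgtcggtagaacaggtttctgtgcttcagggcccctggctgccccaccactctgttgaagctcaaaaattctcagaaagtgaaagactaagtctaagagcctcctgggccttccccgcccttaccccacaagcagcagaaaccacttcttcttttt
The motifs searched, on both strands, were the PU.1 type AGGAAG, the C/EBP type TTGCNNAA, the AP-1 type TGANTCA and the ETS and IRF composite element, which can overlap the PU.1 type. Among the 21263 upstream sequences of protein-coding genes in the same table, 28.5% hold the PU.1 type, 9.09% the C/EBP type, 6.13% the AP-1 type and 2.16% the composite. The Cybb sequence holds 1 AP-1 type match, in capitals above, and 0 of the other types. In the Cyba and Ncf1 sequences 0 matches of these letters were found.

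The second set was taken from the window with the highest H3K27Ac ratio of each of these loci, since the windows away from the starts hold the larger differences. Each is the stretch of 300 bases with the most H3K27Ac tags at 48 hpi, read from mm9 on the minus strand. That of Cybb is chrX:9034889-9035188, in an intron of the gene. That of Cyba is chr8:124962285-124962584, upstream of Cyba within the gene Mvd. That of Ncf1 is chr5:134717483-134717782, upstream of Ncf1 within the gene Gtf2i. Overlap with exons of Mvd or Gtf2i was not checked.
Cybb distal: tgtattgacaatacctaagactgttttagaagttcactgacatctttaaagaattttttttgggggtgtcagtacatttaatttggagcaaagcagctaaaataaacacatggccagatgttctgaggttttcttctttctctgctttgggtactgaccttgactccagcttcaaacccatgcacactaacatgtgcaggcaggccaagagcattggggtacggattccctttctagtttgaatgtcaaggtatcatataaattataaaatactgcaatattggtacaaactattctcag
Cyba distal: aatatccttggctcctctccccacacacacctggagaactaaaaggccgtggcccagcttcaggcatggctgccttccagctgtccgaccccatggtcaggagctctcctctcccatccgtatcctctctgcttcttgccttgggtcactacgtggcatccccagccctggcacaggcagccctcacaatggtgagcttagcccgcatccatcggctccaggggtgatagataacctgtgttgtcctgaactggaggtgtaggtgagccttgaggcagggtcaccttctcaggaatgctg
Ncf1 distal: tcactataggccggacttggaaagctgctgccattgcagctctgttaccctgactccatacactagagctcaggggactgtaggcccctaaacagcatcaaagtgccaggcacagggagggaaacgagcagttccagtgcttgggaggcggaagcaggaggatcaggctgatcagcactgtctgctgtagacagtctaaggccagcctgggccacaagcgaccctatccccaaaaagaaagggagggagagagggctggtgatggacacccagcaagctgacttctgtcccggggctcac
These stretches held 35, 123 and 96 H3K27Ac tags at 48 hpi and lie 11411, 5595 and 12138 bp from the start. Each has 0 matches to the motifs searched. Of 1448517 tiles of 300 bases on chromosomes 5, 8 and X, 28.9% hold the PU.1 type, 14.1% the C/EBP type, 8.64% the AP-1 type and 3.34% the composite. A match is a description of letters, not a binding site, and its absence covers these windows only.

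Tags were counted in 3 kb centred on each start after each library was thinned to the size of the smallest of its mark. A mean mappable window of 3 kb then held 18.3 H3K27Ac, 13.1 H3K4Me1 and 18.4 H3K27Me3 tags. A window was called enriched at 34, 27 and 34 tags, and a difference was called at 2-fold with at least 10 tags over both times. The labelled cell type was set beside marker genes. The 7 pre-B markers were all enriched at 0 hpi and all at least 2-fold lower at 48 hpi, with H3K27Ac tags at their starts of 8729 and 2810 in sum. The 6 macrophage markers were all at least 2-fold higher, with 263 and 2601 tags in sum. Of 5 granulocyte markers 2 were higher, Camp with 12 and 1006 tags and Elane with 16 and 63, while Mpo, Ltf and Ngp held 3 to 11 tags or, for Ltf at 3 hpi, 15. Over the 5 times Camp held 12, 59, 678, 1072 and 1006 tags, and Elane 16, 39, 195, 147 and 63, highest at 12 hpi. Both were higher at 48 than at 0 hpi, as were many oxidase windows, and their part in those results was not tested. T cell markers held 112 and 70 tags in sum, erythroid markers 114 and 97, and fibroblast markers 21 and 29. In a culture measured as a whole, more cells with a mark and more mark per cell cannot be told apart.

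At the starts of the 5 genes H3K27Ac was enriched at all 5 times, compared with 46.4% of all coding starts at 0 hpi and 47.2% at 48 hpi. The start of Cybb (X:9046450, minus strand) held 360, 786, 650, 702 and 625 tags at 0, 3, 12, 24 and 48 hpi. The value before induction lies below the other 4, and the step came between 0 and 3 hpi, where the ratio was 2.18 (1.92 to 2.48). At coding starts as a whole 10.5% were at least 2-fold higher at 3 hpi. With libraries scaled by background bins in place of total tags the ratio was 1.77, and with bins enriched at all times 2.38. Cybb lies on chromosome X, where all H3K27Ac tags went from 297456 to 352375 over this step, a ratio of 1.18. Later libraries held 1.03 to 1.05 times the chromosome X tags of 0 hpi. The share of the chromosome in the Cybb step was not tested. Between 0 and 48 hpi the log2 ratio of the Cybb start was 0.80 (0.61 to 0.99), and it depends on the settings. It was 0.35 in 1 kb, 1.11 in 6 kb, 1.12 with bins enriched at all times and, on few tags, 1.87 at the most upstream annotated start.

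Cyba (8:124956840, minus strand), the partner of Cybb in the membrane, held 700, 769, 811, 990 and 602 tags. Its interval at 24 hpi lies above the other 4, and at 48 hpi the log2 ratio to 0 hpi was −0.22 (−0.38 to −0.06). That direction depends on the scaling, since bins enriched at all 5 times give 0.11, and on the window, since 6 kb gives 0.17. The 24 hpi H3K27Ac library had the fewest tags in background bins, 0.642 of the number at 0 hpi, and the part of this in the peak at 24 hpi was not tested.

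Among the cytosolic subunits, Ncf1 (5:134705495, minus strand) held 454, 490, 746, 794 and 544 H3K27Ac tags. The values at 12 and 24 hpi lie above the other 3, and the log2 ratio of 48 to 0 hpi was 0.26 (0.08 to 0.44). Ncf4 (15:78075231, plus strand) held 727, 637, 792, 858 and 593 tags, with a log2 ratio of −0.29 (−0.45 to −0.14). Its direction is also open to the scaling, with 0.03 by bins enriched at all times. Neither gene passed 2-fold.

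Rac2 (15:78403213, minus strand), the GTPase of the active complex, held 1175, 904, 923, 971 and 550 H3K27Ac tags. By total tags the steps lay between 0 and 3 hpi and between 24 and 48 hpi, with 3 similar values between them. The flat middle depends on the scaling. With background bins 24 hpi was 1.78-fold above 12 hpi and 48 hpi was 0.361 of 24 hpi. Bins enriched at all times give 0.959 and 0.707 for these steps. Its start was above 99.7% of coding starts at 0 hpi and above 96.3% at 48 hpi. The log2 ratio was −1.10 (−1.24 to −0.95), the only one of the 5 past 2-fold in 3 kb. At coding starts as a whole 16.3% were at least 2-fold lower and 10.9% higher, and the median log2 ratio was −0.20. The count of 1 of 5 lower is near that share and not a result about the 5 genes. With bins enriched at all times, which add 0.33 to the log2 ratio at 48 hpi, Rac2 stays lower but does not reach 2-fold (−0.77), while Cybb does (1.12). In a 1 kb window Rac2 was at −0.67, also short of 2-fold.

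**Figure D1:**
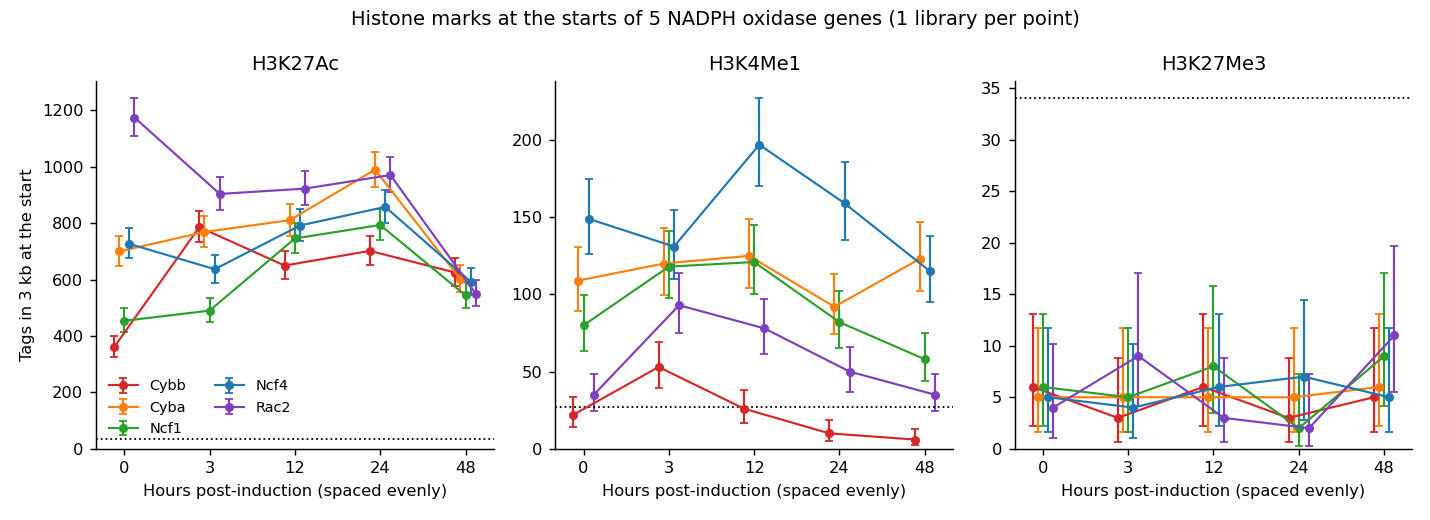
Tags in 3 kb at the start of each gene (y axis) at 0, 3, 12, 24 and 48 hpi (x axis, times spaced evenly), 1 panel per mark; points are single libraries, bars are 95% Poisson intervals and the dotted line is the number of tags at which a window was called enriched. H3K27Ac ranges from 360 for Cybb to 1175 for Rac2 before induction and from 544 to 625 at 48 hpi, H3K4Me1 of Cybb is lowest at 48 hpi with 6 tags, and H3K27Me3 stays between 2 and 11 tags.

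In 3 kb the levels of the 5 starts came together. Within the library of 0 hpi the order was Rac2, Ncf4, Cyba, Ncf1 and Cybb, where Ncf4 and Cyba are the only neighbours with overlapping intervals. The ratio of the highest to the lowest was 3.26 (2.90 to 3.68). At 3 hpi the ratio had come to 1.84, and at 12 and 24 hpi to 1.42 and 1.41. At 48 hpi the order was Cybb, Cyba, Ncf4, Rac2 and Ncf1, no 2 neighbours had separate intervals, and the ratio was 1.15 (1.02 to 1.29). These ratios are within a library and so do not depend on how libraries are scaled. They do depend on the window. In 1 kb the ratio was 3.61 at 0 hpi and 1.79 at 48 hpi, so the range was also narrower at 48 hpi. In 6 kb it was 2.82, 1.28, 1.22, 1.38 and 1.80 at the 5 times, narrowest at 12 hpi and wider again at 48 hpi, when Rac2 was the lowest.

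The Cybb start had the least H3K4Me1 of the 5. It held 22, 53, 26, 10 and 6 tags, highest at 3 hpi and lowest at 48 hpi, and its log2 ratio of 48 to 0 hpi was −1.87 (−3.47 to −0.53). It was the only 1 of the 5 called lower. Of all coding starts 19.5% were lower and 6.27% higher, so 1 of 5 is near that share and not a result about these genes. The call depends on the window and the start: in 1 kb the log2 ratio of Cybb was 0.00 and Ncf4 was the member called lower, at −1.44, and in 6 kb Cybb was at −0.55 and not called. At the most upstream annotated start of Cybb the direction turned, with 1 tag at 0 hpi and 19 at 48 hpi, a log2 ratio of 2.66, and no member was called lower. Cyba held 109, 120, 125, 92 and 123 tags, with overlapping intervals at all times, while background bins put its 48 hpi value 1.71-fold above 0 hpi. Ncf1 held 80, 118, 121, 82 and 58, highest at 3 and 12 hpi. Ncf4 had the most of the 5 from 0 to 24 hpi, with 149, 131, 197, 159 and 115 tags. Rac2 held 35, 93, 78, 50 and 35 tags, so its 48 hpi value was that of 0 hpi after a higher level between, while background bins put it 1.52-fold above 0 hpi. The low H3K4Me1 of Cybb at 24 and 48 hpi, with 10 and 6 tags, stood beside H3K27Ac of 702 and 625 tags in the same 3 kb.

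H3K27Me3 was not enriched at any of the 5 starts at any time. The range was 2 to 11 tags, under the mean of 18.4, whereas 15.9% of coding starts were enriched at 0 hpi. Rac2, with 4 tags at 0 hpi and 11 at 48 hpi, passed 2-fold, but its log2 interval of −0.30 to 3.57 includes no difference. The share of coding starts past 2-fold was 6.45% higher and 7.88% lower, so 1 of 5 on so few tags is not a result about these genes.

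The gene bodies were counted from the end of the 3 kb start window to the end of the gene. Cybb (32.6 kb of body) held 374, 1194, 2245, 3445 and 3537 H3K27Ac tags, which is 11.5 tags per kb at 0 hpi and 109 at 48 hpi. Every step to 24 hpi added tags, and by total tags the values at 24 and 48 hpi are alike. Background bins shift the log2 level by 0.64 at 24 hpi and by −0.01 at 48 hpi, which puts 48 hpi below 24 hpi. Of 15761 coding gene bodies 20.6% were at least 2-fold higher and 7.97% at least 2-fold lower, and the log2 ratio of Cybb, 3.24 (3.09 to 3.40), lay above 98.8% of them. Ncf1 (8.1 kb) held 128, 117, 287, 322 and 391 tags and was 3.05-fold higher at 48 hpi (2.50 to 3.76), with the step after 3 hpi. Cyba (6.7 kb) held 414, 381, 715, 1052 and 647 tags and Ncf4 (16.3 kb) 973, 1015, 1604, 2062 and 1674. Neither passed 2-fold at 48 hpi, with ratios of 1.56 (1.38 to 1.77) and 1.72 (1.59 to 1.86), against a median log2 ratio of 0.19 over all bodies. Scaling by bins enriched at all times lifts Ncf4 past 2-fold, to a log2 ratio of 1.11. The Rac2 body (12.1 kb) held 1274, 690, 1036, 916 and 701 tags, lower at 48 than at 0 hpi, with a ratio of 0.550 (0.501 to 0.604).

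H3K4Me1 over the bodies was at least 2-fold higher for Cybb and Ncf1, compared with 10.6% of 15706 bodies. Cybb held 283, 467, 900, 756 and 698 tags and Ncf1 95, 110, 263, 225 and 224, both highest at 12 hpi. Their ratios of 48 to 0 hpi were 2.47 (2.15 to 2.84) and 2.36 (1.85 to 3.03). Ncf4 held 348, 358, 562, 652 and 576 tags, a ratio of 1.66, which background bins lift past 2-fold, to a log2 ratio of 1.32. Cyba held 273, 304, 365, 203 and 176 tags, a log2 ratio of −0.63, and Rac2 1185, 1189, 1287, 1119 and 953, a log2 ratio of −0.31. The directions of Cyba and Rac2 do not hold with background bins, which give −0.04 for Cyba and 0.28 for Rac2, because such scaling adds 0.60 to H3K4Me1 at 48 hpi.

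**Figure D2:**
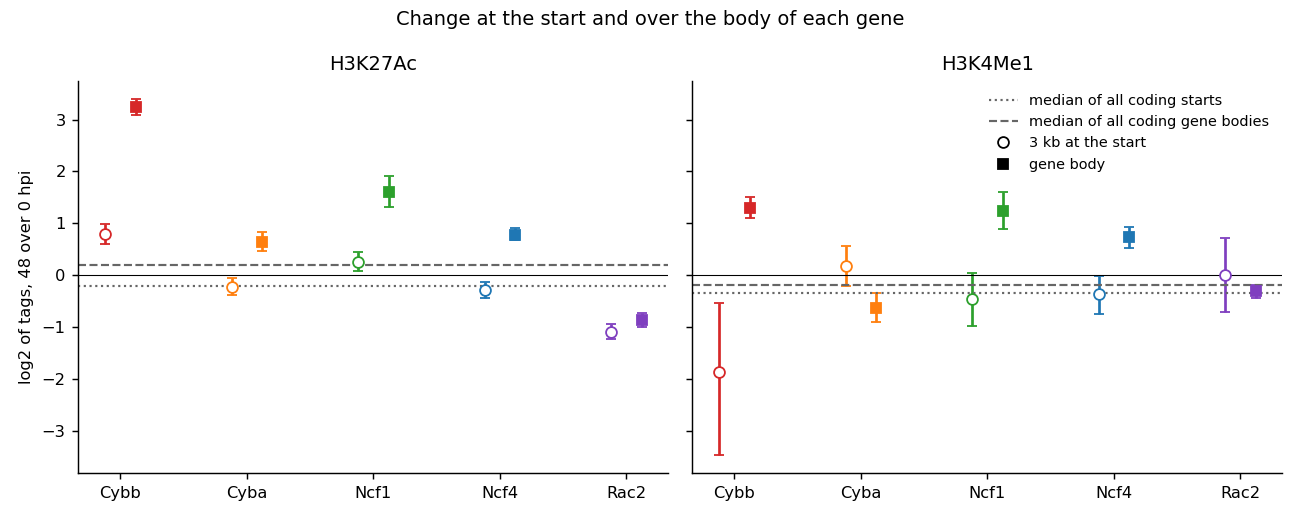
The log2 ratio of tags at 48 over 0 hpi (y axis) in 3 kb at the start (open circles) and over the gene body (filled squares) of each gene, for H3K27Ac (left) and H3K4Me1 (right), with 95% counting intervals and the medians of all coding starts (dotted) and bodies (dashed). For H3K27Ac the body lies above the start in each of the 5 genes, by most for Cybb (0.80 and 3.24), and both values of Rac2 lie below 0.

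The region of each gene with 20 kb on each side was divided into 107 windows of 3 kb, 32 for Cybb, 17 for Cyba, 18 for Ncf1, 21 for Ncf4 and 19 for Rac2. Enriched H3K27Ac windows numbered 33, 44, 57, 63 and 67 at the 5 times, while in the genome 6.32% of windows were enriched at 0 hpi and 9.27% at 48 hpi. Cybb went from 6 to 14, Cyba from 5 to 14, Ncf1 from 5 to 13 and Ncf4 from 4 to 13, whereas Rac2 had 13 at both times. Of the 92 windows with enough tags, 52 were at least 2-fold higher at 48 hpi and 6 lower. In the genome 24.7% of 365826 such windows were higher and 17.8% lower. The higher windows were 18 of 19 at Cybb, 11 of 17 at Cyba, 10 of 17 at Ncf1, 12 of 21 at Ncf4 and 1 of 18 at Rac2, and all 6 lower windows were at Rac2. Most of the higher windows at Cyba, Ncf1 and Ncf4 lie outside those genes, at Cyba and Ncf1 within records of other genes. Neighbouring windows of a locus share a domain and are not replicates.

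The Cybb domain widened in both directions. The window centred 3 kb into the gene held 173, 417, 632, 930 and 870 H3K27Ac tags and had the most of the locus at 48 hpi. At 6 kb, in an intron, it was 36, 316, 559, 782 and 725 tags. The window at 12 kb, from which the first distal stretch above was taken, held 6, 18, 115, 253 and 217 tags and had the highest ratio of the locus, 36.2 (16.3 to 99.6). Upstream, within a longer annotated transcript of Cybb, the window 6 kb before the start held 13, 45, 196, 359 and 287 tags. The annotated start of that transcript, 18447 bp upstream, held 1, 7, 7, 12 and 11 tags and was not enriched. Of the 19 windows with enough tags none was lower, and the lowest ratio among them was that of the start.

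H3K4Me1 of Cybb lay on both sides of the acetylated start. In the windows at the start and 3 kb into the gene it was lower at 48 than at 0 hpi, with 61, 91, 28, 6 and 20 tags in the second. Farther in, at 12 kb, it was 7, 24, 140, 112 and 78 tags, and at 15 kb 16, 45, 108, 101 and 106.

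Upstream of Cyba, acetylation appeared where there had been little. The window centred 6 kb upstream, in the gene body of Mvd (a decarboxylase of the mevalonate pathway) and of the long record Gm20388 that spans the locus, held 23, 194, 437, 740 and 482 H3K27Ac tags. The ratio at 48 hpi was 21.0 (13.8 to 33.4), the highest of the locus, and the level at 24 hpi came near the start of Cyba itself, with 740 and 990 tags. H3K4Me1 there was 31, 87, 293, 290 and 272 tags. The window between it and the start held 20, 62, 179, 304 and 272 H3K27Ac tags. The start of Mvd lies 9 kb upstream (62, 163, 201, 269 and 157 tags) and that of 9330133O14Rik 12 kb upstream (224, 262, 305, 385 and 183, the lowest ratio of the locus at 0.817). Downstream, beyond the window with the start of Il17c (14 and 42 tags at 0 and 48 hpi), a window in Zc3h18 18 kb from the Cyba start held 27, 45, 165, 197 and 263 tags. Tags at these windows cannot be assigned to Cyba rather than to Mvd or Zc3h18.

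The strongest H3K27Ac of the Ncf1 locus lay upstream of the gene. The intergenic window 3 kb before the start held 881, 949, 1036, 1144 and 977 tags, more than the start at every time, and it changed little (ratio 1.11, 1.01 to 1.22). Farther upstream, in the window at 12 kb that holds annotated starts of Gtf2i, tags numbered 23, 22, 111, 273 and 479. The highest value was the last. This window had a ratio of 20.8 (13.7 to 33.2), and its H3K4Me1 was 12, 9, 31, 102 and 195 tags. Inside Ncf1, the window 3 kb from the start held 102, 91, 231, 235 and 257 H3K27Ac tags. On the other side a window with a start of Gtf2ird2 held 20, 54, 214, 222 and 113 tags. Tags at windows in Gtf2i and Gtf2ird2 cannot be assigned to Ncf1 rather than to those genes. The lowest ratio was at few tags, 9 and 5, in a window with starts of Gtf2ird2 and 7SK, and the next window holds the start of AC158379.1 with 13 and 12.

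At Ncf4 the first windows of the gene were acetylated at all times, and the later part had more H3K27Ac at 48 hpi. The window 3 kb into the gene held 748, 652, 774, 870 and 548 tags and had the lowest ratio of the locus, 0.733 (0.655 to 0.819). At 12 kb it was 101, 173, 333, 483 and 454 tags and at 15 kb 26, 78, 294, 425 and 406. Beyond the gene, toward Csf2rb2 (a subunit of the IL-3 receptor), the window at 33 kb held 8, 28, 85, 167 and 251 tags, a ratio of 31.4 (15.7 to 73.5). H3K27Me3 in this last window was 39, 51, 59, 50 and 29 tags, enriched up to 24 hpi and not at 48 hpi. The log2 ratio of 48 to 0 hpi was −0.43, and its interval of −1.17 to 0.3 includes no difference. H3K4Me1 was 13, 31, 152, 167 and 185.

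The Rac2 locus had less acetylation at 48 hpi on both sides of its start. The window 3 kb upstream held 237, 120, 99, 78 and 41 H3K27Ac tags, each value below the one before, and its ratio of 0.173 (0.121 to 0.242) was the lowest of the 92 windows with enough tags. At 9 kb upstream, the second peak of the locus held 775, 599, 533, 632 and 305 tags, and at 15 kb upstream 236, 55, 64, 97 and 70, where the difference was complete by 3 hpi. Inside the gene the window at 9 kb held 591, 289, 505, 452 and 236 tags. The 1 higher window, 21 kb upstream, held 29, 18, 49, 132 and 109 tags, a ratio of 3.76 (2.48 to 5.87). H3K4Me1 was 443, 446, 477, 416 and 312 tags in the window at 9 kb inside the gene, a log2 ratio of −0.51 (−0.72 to −0.29), whose direction does not hold with background bins, which add 0.60. The starts of Gm6723 and Sstr3 lie downstream, with 6 and 3 and with 9 and 14 H3K27Ac tags at 0 and 48 hpi.

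**Figure D3:**
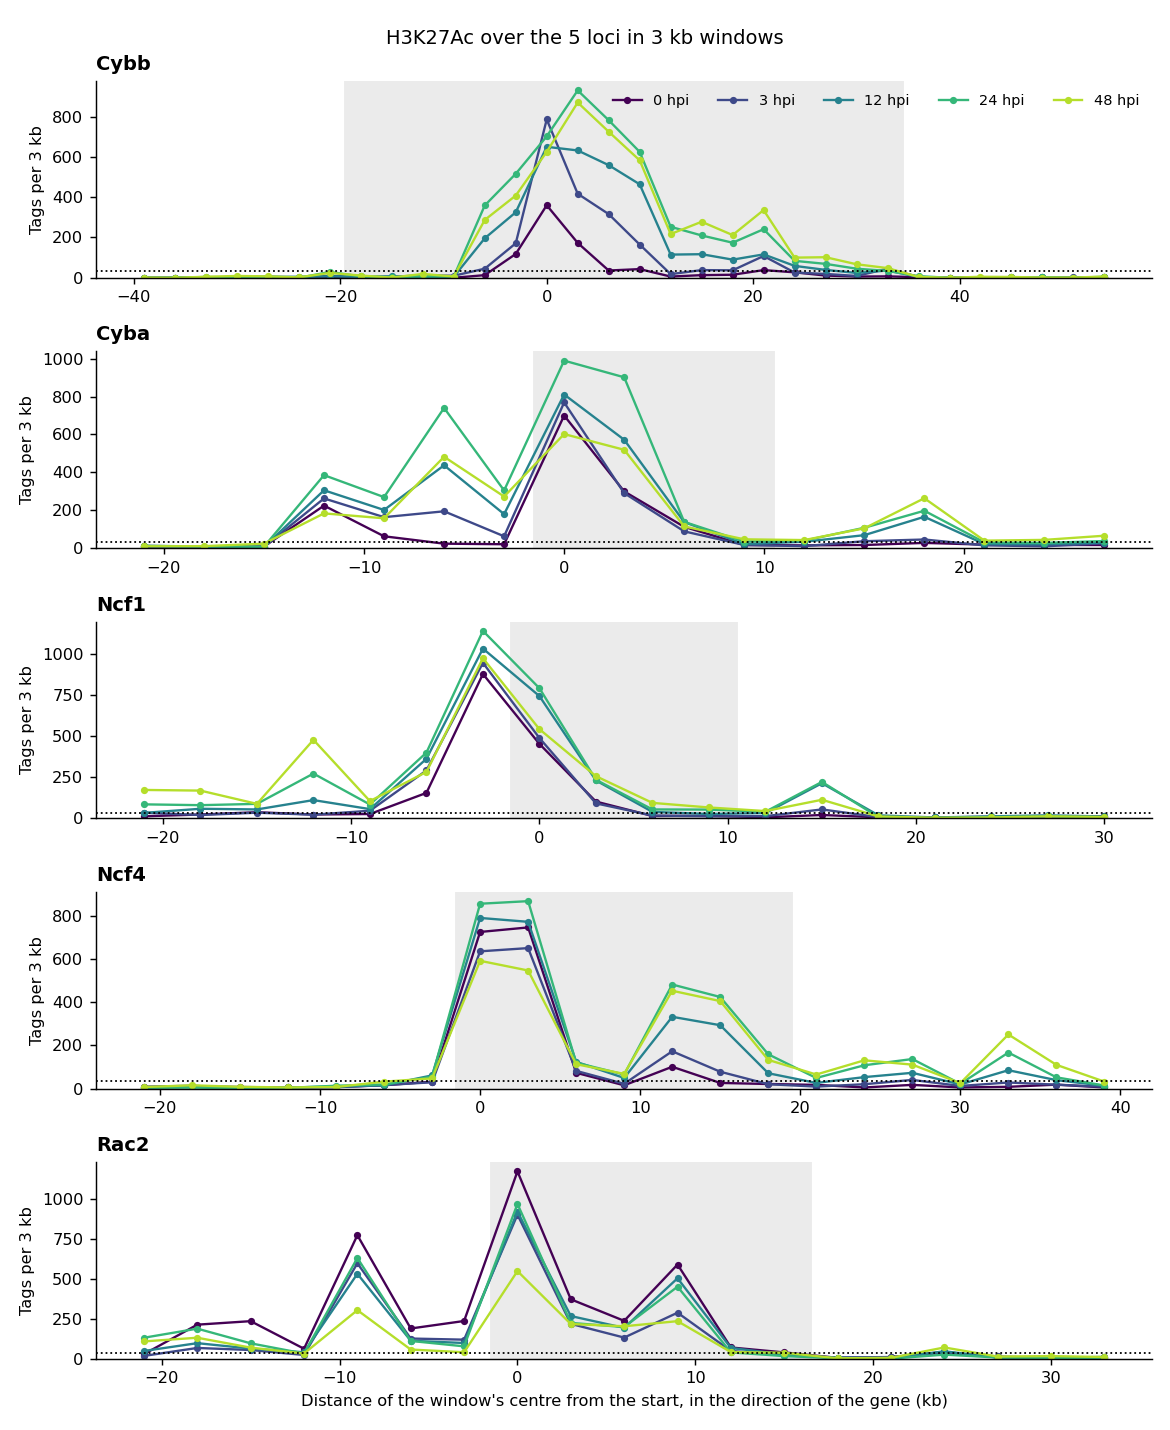
H3K27Ac tags per 3 kb window (y axis) by distance of the window's centre from the start in the direction of the gene (x axis, kb), 1 panel per gene and 1 line per time; the shaded part covers windows of the annotated gene and the dotted line is the number of tags called enriched. At Cybb the highest window is the start at 0 hpi, with 360 tags, and the window 3 kb into the gene at 48 hpi, with 870 tags, peaks away from the start appear at Cyba, Ncf1 and Ncf4, and at Rac2 the line of 0 hpi lies highest over the start with 1175 tags.

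H3K4Me1 in the 107 windows was at least 2-fold higher at 48 hpi in 42 and lower in 12, of 92 with enough tags, compared with 16.8% higher and 29.8% lower in the genome. With background bins 51 were higher and 7 lower. The higher windows were 14 at Cybb, 6 at Cyba, 10 at Ncf1, 11 at Ncf4 and 1 at Rac2, and the lower ones 2, 1, 2, 1 and 6. Summed over the loci, H3K4Me1 went from 4882 tags at 0 hpi to 5261, 8007, 7654 and 7259, so most of the difference lay between 3 and 12 hpi. H3K27Ac summed to 10476, 10965, 15476, 19768 and 16687.

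**Figure D4:**
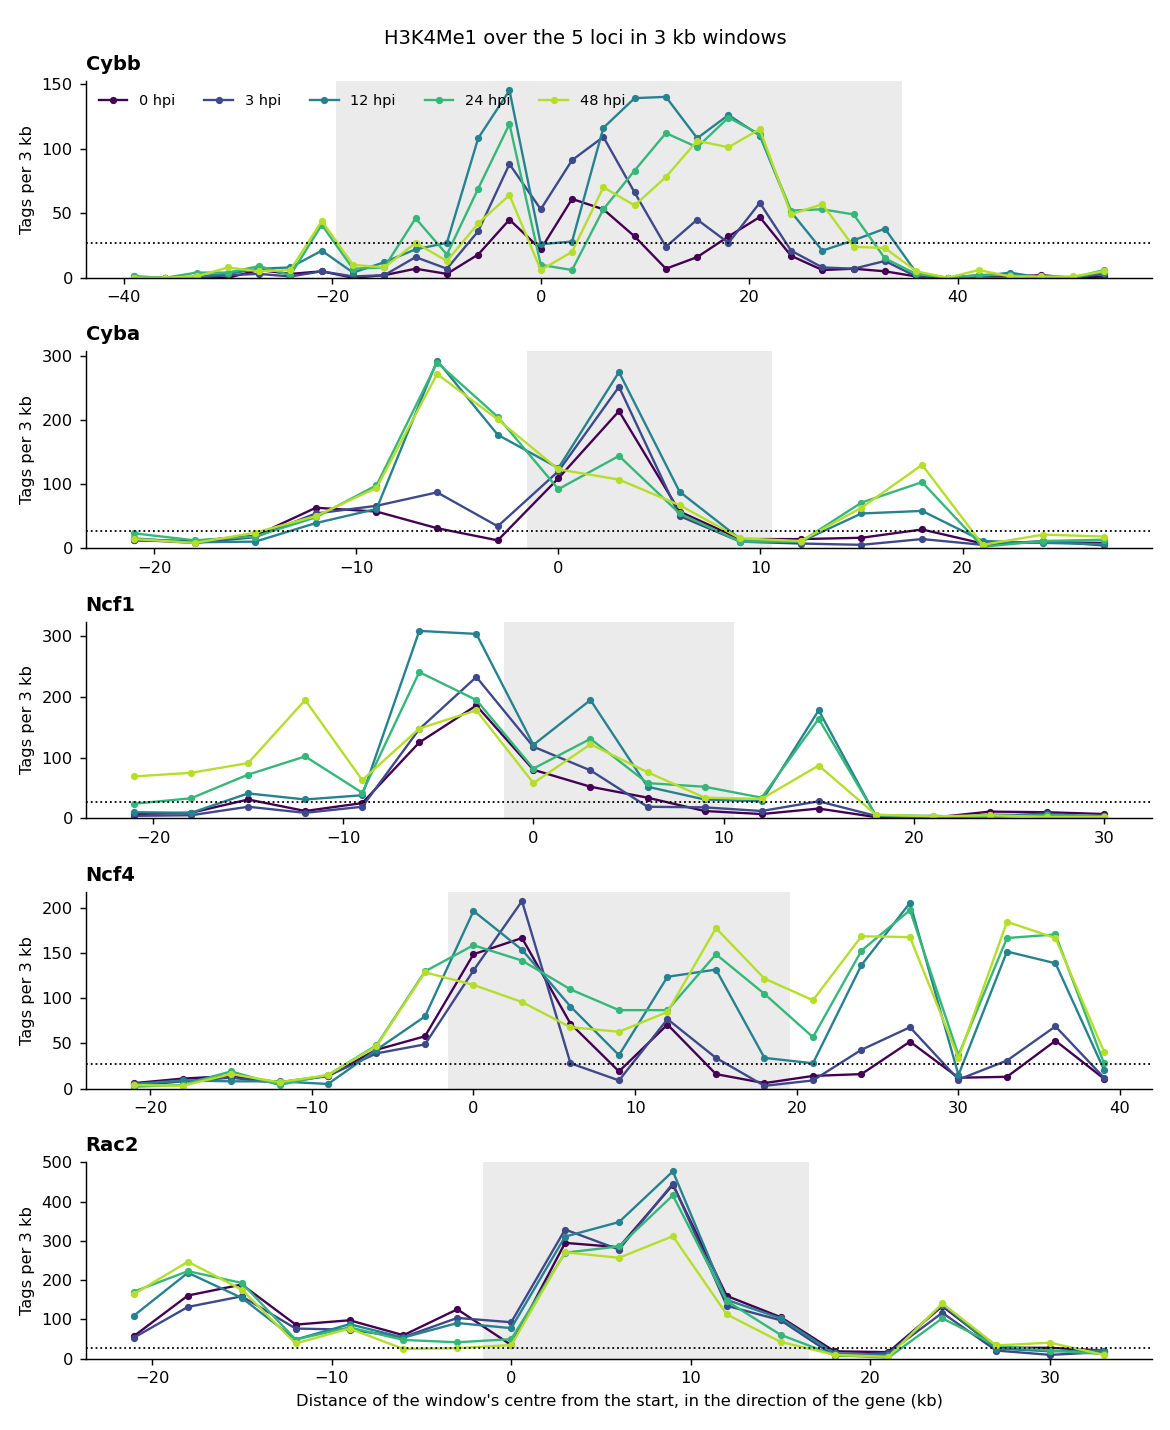
H3K4Me1 tags per 3 kb window (y axis) by distance from the start in the direction of the gene (x axis, kb), drawn as for H3K27Ac. The dip at the start of Cybb deepens to 6 tags at 48 hpi between higher windows, the window 6 kb upstream of Cyba goes from 31 to 272 tags, and the Rac2 gene body keeps the most of the 5 loci, with 443 tags at 0 hpi and 312 at 48 hpi in its highest window.

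The enriched H3K27Me3 windows lay outside the genes. Upstream of Ncf4, windows from 6 to 21 kb before the start held 31 to 56 tags at 0 hpi, where 4 of the 6 were enriched, and 40 to 78 at 48 hpi. At Rac2 4 windows from 18 to 30 kb downstream of the start were enriched at 0 hpi, with 36, 56, 54 and 76 tags. At Cyba the 3 windows 15 to 21 kb upstream were enriched at every time. At Cybb no window was enriched at 0 hpi, yet 12 of 21 windows with enough tags were at least 2-fold higher at 48 hpi, compared with 4.61% in the genome. They include the intergenic window 21 kb upstream (17, 32, 52, 29 and 43 tags) and the one centred 45 kb downstream of the start, past the end of the gene (10, 19, 23, 26 and 34), the 2 that were enriched at 48 hpi. Of the 12, 5 lie in the annotated gene, all with fewer than 34 tags at 48 hpi. Some rest on few tags, and their log2 intervals include no difference. These are the windows 6 kb upstream (4 and 9 tags, −0.67 to 3.32), 27 kb downstream (2 and 9, −0.1 to 5.42) and 51 kb downstream (6 and 16, −0.01 to 3.06). Bins enriched at all times would take 0.17 off each log2 ratio, the lowest of which was 1.13. Summed over the 32 windows H3K27Me3 held 197, 253, 359, 295 and 403 tags. All H3K27Me3 tags on chromosome X at 48 hpi were 0.980 of those at 0 hpi. The other loci had 0 to 3 such windows each. Over the gene bodies, the few H3K27Me3 tags of Cybb were 36, 55, 67, 31 and 68, a ratio of 1.89 (1.24 to 2.91). Those of Rac2 were 24, 23, 28, 21 and 49, a ratio of 2.04 (1.23 to 3.48), and 1.01% of coding gene bodies were at least 2-fold higher. In both genes the value at 24 hpi was below that at 0 hpi. The ratio was 0.625 (0.254 to 1.46) for Cyba and 1.05 (0.661 to 1.67) for Ncf4, and the Ncf1 body held 14 tags at 0 and at 48 hpi.

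Other genes that act with the enzyme were read at their starts in the same way. Of 10 oxidase partners and regulators, 0 were at least 2-fold higher in H3K27Ac and 1 was lower, near the 10.9% and 16.3% of all coding starts. The median log2 ratio was −0.39, against −0.20 over all coding starts. The highest ratios were those of Prkcd, a kinase of the protein kinase C family, with 568 tags at 0 hpi and 585 at 48 hpi, and Rac1, a GTPase related to Rac2, with 564 and 540. The lower one was Prkcb, of the same kinase family, with 93, 155, 7, 5 and 11 tags, and the next was Hvcn1, the proton channel that balances the charge moved by the oxidase, with 309, 134, 139, 152 and 157. In H3K4Me1, 0 partners were higher and 3 lower, Hvcn1, Prkcb and Vav1, where all coding starts give 6.27% and 19.5%. With 10 genes, the counts of this list are too near those shares to be a result about its genes.

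Of 9 genes of oxidases outside phagocytes, 5 had enough H3K27Ac tags and none passed 2-fold in either direction, with a median of −0.58. All coding starts give 10.9% higher, 16.3% lower and a median of −0.20, so this count on 5 genes is not a result about them. Noxo1, the Ncf1-like organizer of the NOX1 enzyme, was the only one enriched, with 160, 223, 144, 111 and 103 tags. Noxa1 had 9 and 5 tags at 0 and 48 hpi, Nox1 4 and 6 and Duox1 8 and 9. H3K27Me3 was enriched at 5 of these 9 starts at 0 hpi and at 6 at 48 hpi, and at 15.9% and 18.4% of all coding starts. H3K4Me1 was lower at 3 of the 6 with enough tags, Noxa1, Duox1 and Duoxa1, and higher at 0, against 19.5% and 6.27% of all coding starts. Overlap among the start windows of these 9 genes was not checked, so some tags may count at more than 1 start. Of 8 enzymes that handle reactive oxygen, 1 was higher in H3K27Ac, Txnrd1 (thioredoxin reductase) at the low level of 6 and 12 tags. In the same list 0 were lower, and the median was −0.24. All coding starts give 10.9% higher and 16.3% lower, so 1 of 8 on so few tags is not a result about these genes. Gclm, of glutathione synthesis, held 139 tags at 0 hpi and 171 at 48 hpi. The lowest ratios were those of Cat (catalase), with 707 and 388 tags, and Gpx1 (glutathione peroxidase), with 889 and 603. In H3K4Me1 1 was lower, Sod1, and 0 higher, where all coding starts give 19.5% and 6.27%.

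The genes whose starts were most like each member over the 10 H3K27Ac and H3K4Me1 libraries were found by the root mean square difference of log2 level, as a description. For Cybb they were Slc31a1, a copper transporter, at 0.328, and Ap4b1, at 0.356. Slc31a1 held 403, 740, 719, 864 and 611 H3K27Ac tags and 40, 53, 24, 8 and 5 H3K4Me1 tags, so it also had its step between 0 and 3 hpi and its lowest H3K4Me1 at 48 hpi. For Cyba they were Slc6a6 (0.198), the taurine transporter, and Hmha1 (0.204), for Ncf1 Fam53c (0.14) and Nek9 (0.198), for Ncf4 Myo1c (0.215) and Pnrc2 (0.219), and for Rac2 Apobec4 (0.172) and Apbb1ip (0.209). The nearest gene of Cybb was farther from it than those of the other 4 were from theirs. Cybb held only 22, 53, 26, 10 and 6 H3K4Me1 tags, and counting error widens log2 differences at few tags. Its part in this distance was not tested.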

How the data were processed

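The deposited files hold 1 aligned tag of 36 bp per line, as chromosome, start and end without strand, and are neither counts nor normalized values. Per the labels and the study's methods, the authors aligned reads to mm9 with Eland or Bowtie, without mismatches, and removed identical tags and tags without a unique position. Libraries held 11.04 to 31.56 M (1e6) tags. Some held up to 2 tags per position and H3K4Me1 at 0 and 48 hpi up to 205, so 1 tag per position was kept here. In 3 files 2 lines without a position were dropped.

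Tags were placed at 18 bp from their start on chromosomes 1 to 19 and X. Each library was thinned with a fixed seed to the smallest of its mark, which left 15.34 M tags of H3K27Me3, 15.22 M of H3K27Ac and 10.91 M of H3K4Me1. The annotation was GENCODE vM1 on NCBIM37, in which 0 tags fell in bins of unknown bases. The start is the 5′ end of the transcript with the longest coding sequence. In ratios, counts under 3 were set to 3. Enriched means a Poisson tail under 0.001 over the mean mappable window. Intervals of tags are exact Poisson and those of ratios exact binomial, at 95%. The counting was tested on simulated data. Python 3.11.15, numpy 2.4.6, pandas 2.3.3, scipy 1.17.1 and matplotlib 3.10.9 were used. RefSeq upstream sequences were found for 3 of the 5 genes, and Ncf4 and Rac2 are named only.

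The genes and lists were chosen with earlier results of these data known. Windows named are, per locus, those with the highest ratio, the lowest ratio and the most H3K27Ac at 48 hpi. Of each list the 2 highest and 2 lowest ratios with enough tags are named, and of like genes the first 2. In all, 1 gene of the list of partners and regulators is not reported here, and the counts and median of that list leave it out. Gene bodies, the ratio of highest to lowest start and the other windows named were added after values were seen. Alternatives were other window sizes, scalings, starts, seeds and window grids.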

Additional observations from a re-analysis of the deposited data

How the results depend on the processing

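Of 37 results under 10 alternatives, 204 of 248 values stayed within the counting interval or within 1.5 times the count. A further 43 moved and 1 reversed. Only a ratio of at least 2-fold could be called reversed, so a change of sign in a smaller ratio counts as moved or as stayed. Such changes of sign include H3K27Ac at the starts of Cyba and Ncf4 and H3K4Me1 over the body of Rac2. The reversed value is H3K4Me1 of Cybb, with a log2 ratio of 2.66 at its most upstream start against −1.87 at the start used. Members called higher in H3K27Ac at the start numbered 0, and 1 with 6 kb, with bins enriched at all 5 times or with the most upstream start. Those called lower numbered 1, and 0 with 1 kb or with bins enriched at all times. In H3K4Me1 the number higher was 0, and 1 with the most upstream start, and the number lower 1, and 0 with that start or 6 kb. With 1 kb it was again 1, but Ncf4 (−1.44) in place of Cybb (0.00). In H3K27Me3 the number higher was 1, and 0 with 1 kb or 6 kb and 2 with another seed, and the number lower 0, and 1 with 6 kb. Windows lower in H3K4Me1 numbered 12, and 7 with background bins. The ratio of highest to lowest start was 2.82 at 0 hpi with 6 kb, and at 48 hpi 1.79 with 1 kb and 1.80 with 6 kb. The causes were not tested. Of the 27 values for single genes that moved, 18 did so under another scaling. No paired analysis was possible because a mark was read in just 1 library at each time. At 10 tags or fewer, counting error alone spans over 2-fold.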

Other observations

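Genes next to the oxidase genes shared their windows. At 0 and 48 hpi the window with the start of Mvd, upstream of Cyba, held 62 and 157 H3K27Ac tags, and that with a start of Gtf2ird2, downstream of Ncf1, held 20 and 113. Farther into Gtf2i, the windows 18 and 21 kb upstream of Ncf1 held 23, 20, 58, 80 and 169 tags and 12, 34, 33, 85 and 173 tags, and in both the highest value was at 48 hpi. Between Ncf4 and Csf2rb2, H3K4Me1 27 kb past the start of Ncf4 was 52, 68, 206, 198 and 168 tags beside H3K27Ac of 17, 40, 73, 137 and 111. No RNA was analysed here, so no value above is a transcript level.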
